A study of Homo sapiens with 12 samples.

Results

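NEAT1 and MALAT1 are long noncoding RNA genes that lie next to each other on chromosome 11, and both held summits of the EGFR chimera in every GluGlu ChIP-seq library. They were chosen by these summits: the genes were picked because summits were seen along their bodies with and without the dimerizer, so the values that follow describe them and carry no test. The members were all summits within the GENCODE limits of each gene extended by 1000 bp, or in the interval between the genes. They comprised 2 of 62700 annotated genes and 34 of the 2186 summits listed (1.56%), 24 in NEAT1 and 10 in MALAT1.

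NEAT1 RNA is the scaffold of paraspeckles, nuclear bodies that retain certain proteins and RNAs. A short and a long transcript share the 5′ end of the gene, and the long one is needed to build the paraspeckle. MALAT1 RNA accumulates at nuclear speckles, which store splicing factors. The 3′ ends of MALAT1 and of the long NEAT1 transcript are formed by RNase P, which cuts upstream of a tRNA-like structure, rather than by conventional polyadenylation. Nuclear EGFR has been described to associate with AT-rich sequence.

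The cells were B2B1, a clonal line (1 clone) derived from human MCF10A-5E breast epithelial cells, which expressed retrovirally delivered chimeras. One joined the NGFR extracellular part to EGFR, an FRB domain and a GluGlu epitope tag. The other joined NGFR to rat Erbb2, 2 FKBP domains and an HA tag. The EGFR chimera is therefore an added, tagged protein in a single clone and not the receptor of the cells themselves. In the minus AP group the cells received 0.1% ethanol, and in the plus AP group 0.5 µM AP21967 (AP), which brings FRB and FKBP together, for 24 h. Both groups were harvested on day 7 of overlay culture, in which cells on plastic are covered with medium containing dilute basement membrane matrix. Each had 2 libraries labelled as biological replicates, and the 8 input and naive IgG libraries of the 12 in the series were not analysed here. Expression was not measured in these samples, so the cell type could not be checked against its markers.

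A summit is the highest point of a peak called in an immunoprecipitate, and its score is the authors' q-value for that peak on a −log10 scale. The lists held 739 summits in minus AP replicate 1, 56 in minus AP replicate 2, 1094 in plus AP replicate 1 and, last, 297 in plus AP replicate 2, and sets of 4 values follow this order of the libraries. The read depth behind them is unknown, and scores were compared only within a list. Both replicate 1 lists stood apart. Windows of 301 bases in which at least 90% of the 75-base sequences occurred elsewhere in the genome surrounded 354 (47.9%) and 597 (54.6%) of their summits, against 0 in both replicate 2 lists. In all 34 windows of NEAT1 and MALAT1, 0% of the 75-base sequences occurred elsewhere.

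On GRCh38, NEAT1 (ENSG00000245532.11) spans chr11:65422774-65445540 on the plus strand, a length of 22767 bp. Its canonical transcript is 1 exon starting at 65422798. Of its 9 annotated transcripts, 8 end within 5000 bp of the start, the last at 65426513, and these were taken as the short form. MALAT1 (ENSG00000251562.11) spans chr11:65497640-65508073 on the same strand, a length of 10434 bp, and its canonical transcript is also 1 exon. An inner start of MALAT1 in RefSeq lies at 65499045, 1405 bp into the gene, and 29 of the 66 annotated transcripts start within 10 bp of it. All 34 summits lay inside the annotated genes, within the exon of the canonical transcript, and none fell in the added 1000 bp on any side.

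The sequence around the highest-scoring NEAT1 summit of each library is shown because that summit lay in the part covered by the short form in all 4. Each line gives 101 bases of the plus strand of GRCh38 centred on the summit. Capitals mark matches to TNTTT, the AT-rich sequence searched for, or to its reverse complement, with overlapping matches run together.
NEAT1, minus AP replicate 1, chr11:65423320-65423420: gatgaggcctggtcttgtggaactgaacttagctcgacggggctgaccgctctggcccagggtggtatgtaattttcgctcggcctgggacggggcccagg
NEAT1, minus AP replicate 2, chr11:65423725-65423825: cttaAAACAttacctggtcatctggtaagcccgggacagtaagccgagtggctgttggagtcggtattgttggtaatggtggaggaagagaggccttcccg
NEAT1, plus AP replicate 1, chr11:65426114-65426214: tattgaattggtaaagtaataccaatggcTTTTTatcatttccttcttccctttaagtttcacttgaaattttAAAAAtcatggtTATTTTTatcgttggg
NEAT1, plus AP replicate 2, chr11:65423524-65423624: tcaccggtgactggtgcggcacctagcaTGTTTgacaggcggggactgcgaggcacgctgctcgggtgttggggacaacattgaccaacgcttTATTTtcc

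These 4 sequences differed in composition. GC content was 62.4, 52.5, 27.7 and 58.4% in the order shown. The number of TNTTT matches was 0, 1, 4 and 2 in the same order, so the most AT-rich sequence had the most matches and the highest summit of minus AP replicate 1 had none.

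The highest-scoring MALAT1 summit of each library is shown because it was the most 5′ one in the gene each time. In minus AP replicate 1 it was the only one.
MALAT1, minus AP replicate 1, chr11:65499121-65499221: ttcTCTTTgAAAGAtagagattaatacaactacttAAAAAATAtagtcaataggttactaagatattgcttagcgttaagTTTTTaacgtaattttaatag
MALAT1, minus AP replicate 2, chr11:65499184-65499284: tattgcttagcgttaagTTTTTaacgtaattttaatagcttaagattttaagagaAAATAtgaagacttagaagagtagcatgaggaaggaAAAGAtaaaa
MALAT1, plus AP replicate 1, chr11:65499020-65499120: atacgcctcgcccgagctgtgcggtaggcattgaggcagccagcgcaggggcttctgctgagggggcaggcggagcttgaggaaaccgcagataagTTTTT
MALAT1, plus AP replicate 2, chr11:65499486-65499586: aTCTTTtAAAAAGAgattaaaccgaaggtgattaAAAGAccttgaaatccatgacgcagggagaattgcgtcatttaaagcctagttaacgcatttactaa

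The MALAT1 sequences of minus AP replicate 1 and minus AP replicate 2 overlapped each other. GC content over the 4 libraries was 23.8, 26.7, 61.4 and 34.7%. TNTTT matched 6, 3, 1 and 4 times.

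The inner start of MALAT1 has a promoter entry in RefSeq, and it is printed because a summit fell inside it. The 300 bases run from 250 before to 50 after the start, on the plus strand, and capitals mark the TATAAA that it holds.
MALAT1 inner promoter, chr11:65498795-65499094: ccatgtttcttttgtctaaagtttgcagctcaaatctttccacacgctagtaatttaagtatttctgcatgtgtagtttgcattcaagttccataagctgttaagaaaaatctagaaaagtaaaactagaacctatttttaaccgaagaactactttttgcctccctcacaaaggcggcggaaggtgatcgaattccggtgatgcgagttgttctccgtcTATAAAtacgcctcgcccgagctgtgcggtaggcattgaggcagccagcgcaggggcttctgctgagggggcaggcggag
The summit inside this window was the one at 65499070 in plus AP replicate 1. TATAAA, searched on both strands after the values had been seen, matched once and began 30 bp before the start, and 11.5% of 35116 RefSeq promoters of this length held a match. TNTTT matched 9 times, and 74.0% of promoters held it. TGANTCA, the AP-1 sequence, and TTCNNNGAA, the STAT sequence, had 0 matches and were held by 7.71% and 7.66% of promoters. GC content was 46%. No promoter entry was given for NEAT1.

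NEAT1 held 5 and 4 summits in the libraries without AP and 8 and 7 in those with AP. The minus AP mean was 4.5 ± 0.707 (SD, n = 2), the plus AP mean was 7.5 ± 0.707 (SD, n = 2), and the groups did not overlap. MALAT1 held 1, 2, 3 and 4 summits in the same order, with means of 1.5 ± 0.707 (SD, n = 2) and 3.5 ± 0.707 (SD, n = 2), again without overlap. Together the genes had 6 summits in each minus AP library and 11 in each plus AP library. Replicate 2 alone, whose lists had no repeated windows, gave 4 and 7 in NEAT1 and 2 and 4 in MALAT1.

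The plus AP list was the longer one in each replicate number, and relative to list length the order of the group means turned around, although not that of the replicate 1 libraries. As a share of the summits inside annotated genes, NEAT1 took 4.13% (95% Wilson interval 1.78 to 9.31) in minus AP replicate 1 and 8.51% (3.36 to 19.9) in minus AP replicate 2. In plus AP replicate 1 it took 4.60% (2.35 to 8.81) and in plus AP replicate 2 2.85% (1.39 to 5.76). The minus AP mean was 6.32 ± 3.10% (SD, n = 2), the plus AP mean was 3.72 ± 1.24% (SD, n = 2), the ranges overlapped, and the difference was smaller than the spread between the minus AP replicates. For MALAT1 the shares were 0.826, 4.26, 1.72 and 1.63%, with means of 2.54 ± 2.42% and 1.68 ± 0.0694% (SD, n = 2), and the plus AP values lay between the minus AP ones. In replicate 1 both genes had a higher share with AP, 4.13 and 4.60% in NEAT1 and 0.826 and 1.72% in MALAT1, and in replicate 2 a lower one. Minus AP replicate 2, the list of 56 summits, weighed most in the means. Without it NEAT1 had 4.13% without AP and a mean of 3.72% with AP, whereas MALAT1 had 0.826% and a mean of 1.68%, higher with AP. Among the 56 highest-scoring summits of each library, NEAT1 had 0, 4, 0 and 3 and MALAT1 0, 2, 0 and 1. These 56 are the whole list of minus AP replicate 2, so all its summits are kept, and the counts come from the replicate 2 libraries alone. The part of list length in the higher number of summits with AP was not tested. The intervals cover counting error only, and 2 libraries against 2 cannot reach a two-sided exact permutation p below 0.333.

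**Figure D1:**
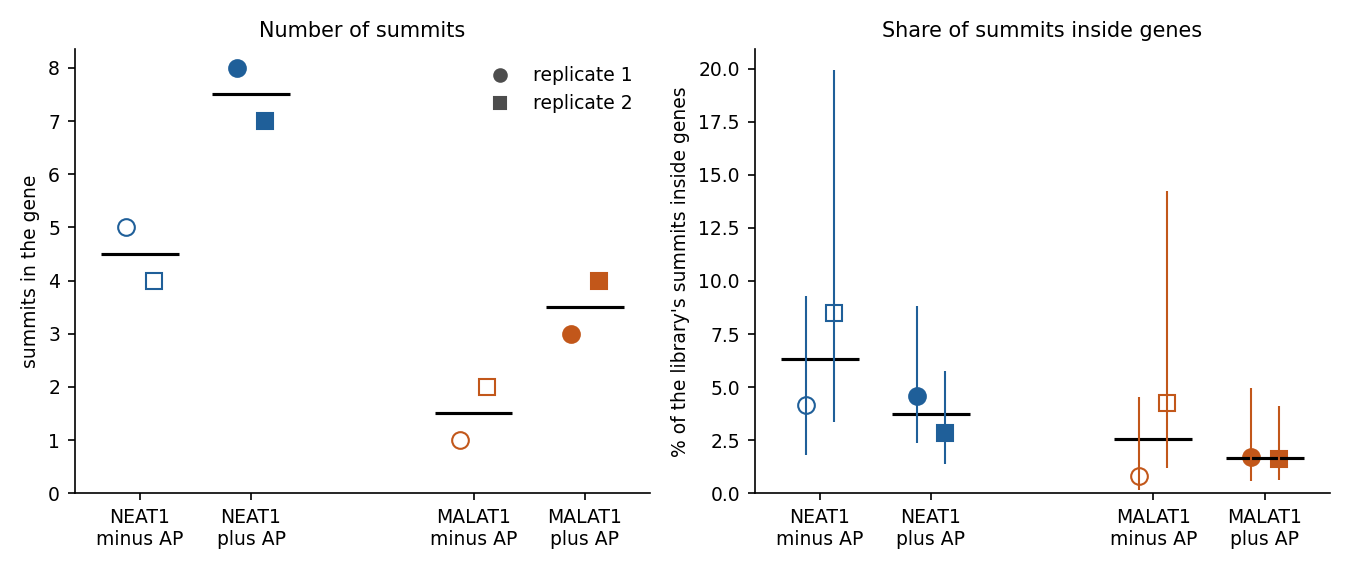
Summits in NEAT1 (blue) and MALAT1 (orange) as a number per library (left) and as a percentage of the library's summits inside annotated genes (right, vertical lines are 95% Wilson intervals); open symbols are minus AP, filled symbols plus AP, and bars are group means. The numbers separate the groups, 4 and 5 against 7 and 8 in NEAT1, whereas the shares overlap.

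Across all annotated genes, 536 had a summit in at least 1 library. Of these, 31 (5.78%) had one in all 4 libraries, NEAT1 and MALAT1 among them. More summits in each plus AP than in each minus AP library were found in 45 of the 536 (8.4%), again with both genes among them, and 3 had more in each minus AP library. Because the genes were chosen on these lists, nothing is read from their place in either count. The second count rested on both plus AP libraries, rising to 339 genes without plus AP replicate 1 and 109 without plus AP replicate 2. A total of 9 genes met both conditions. Overlapping annotations were counted as separate genes here, so these counts are of annotations and not of separate signals. The summits of NEAT1 and MALAT1 thus enter more than once, among others through small RNA genes within both genes. They also enter through TALAM1, an antisense gene overlapping MALAT1. ENSG00000270117, another antisense gene there, takes the most 5′ MALAT1 summit of all 4 libraries within its extended limits.

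Along NEAT1, the highest summit lay in the part shared with the short transcripts in all 4 libraries. In minus AP replicate 1 it was at 65423370, with a score of 18.9 against at most 3.68 beyond that part. In minus AP replicate 2 it was at 65423775, with 11.8 against 5.74. In plus AP replicate 1 it was at 65426164, with 10.5 against 4.54, and in plus AP replicate 2 at 65423574, with 15.8 against 9.35. The summit of minus AP replicate 1 also fell in a small annotated RNA gene (ENSG00000278144), 1 of 3 of that class within NEAT1. As background, genes with at least 3 summits in a library were divided into 4 equal parts. Their highest summit lay in the first part in 6 of 12, 7 of 7, 9 of 19 and 12 of 21 genes by library. The place of the highest NEAT1 summit is therefore not read as a trait of NEAT1.

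The 3740 bp of the short part held 8 of the 24 NEAT1 summits and the 19027 bp beyond it held 16. By library, the short part had 1, 3, 2 and 2 summits and the rest of the gene had 4, 1, 6 and 5. Without AP the replicates thus differed from each other in both parts, and with AP the rest of the gene had more summits than in either minus AP library. The lists differed in length too, with 121, 47, 174 and 246 summits inside annotated genes. The part of list length in this difference was not tested. The most distant summit lay 17287 and 11928 bp from the canonical start in minus AP replicates 1 and 2 and 16134 and 22190 bp in the plus AP replicates.

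Minus AP replicate 1 had its other NEAT1 summits at 65433507, 65434018, 65436272 and 65440085, with scores of 3.18, 2.78, 3.68 and 1.69. Minus AP replicate 2 had others at 65423014, 65426247 and 65434726, with scores of 6.74, 9.50 and 5.74. The first of these lists left 10137 bp of the gene without a summit after the 5′ one, whereas the second had 3 of its 4 summits in the short part.

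Plus AP replicate 1 had further NEAT1 summits at 65423176 and 65428023, with scores of 9.44 and 4.30, and 5 from 65433292 to 65438932, with scores of 2.10 to 4.54. Plus AP replicate 2 had them at 65425118, 65428912, 65430411, 65433035 and 65434619, with scores of 12.7, 9.35, 4.08, 4.38 and 3.50. Its last summit, at 65444988 with a score of 2.66, was 552 bp from the end of the gene and 431 bp past MIR612, a microRNA gene within NEAT1. The scores thus fell from the 5′ part towards the 3′ part in plus AP replicate 2, apart from 1 step up between 65430411 and 65433035. In plus AP replicate 1, scores in the distal cluster stayed within 2.10 to 4.54.

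The median spacing of neighbouring NEAT1 summits was 3034 bp in minus AP replicate 1, 2472 bp in minus AP replicate 2, 1958 bp in plus AP replicate 1 and 2104 bp in plus AP replicate 2. The shortest spacing in each was 511, 761, 548 and 1499 bp, and the longest 10137, 8479, 5269 and 10369 bp. Over all 4 libraries the longest stretch without any summit was 4903 bp, between 65440085 and 65444988. Summits of 1 library share their reads' source and are not replicates.

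**Figure D2:**
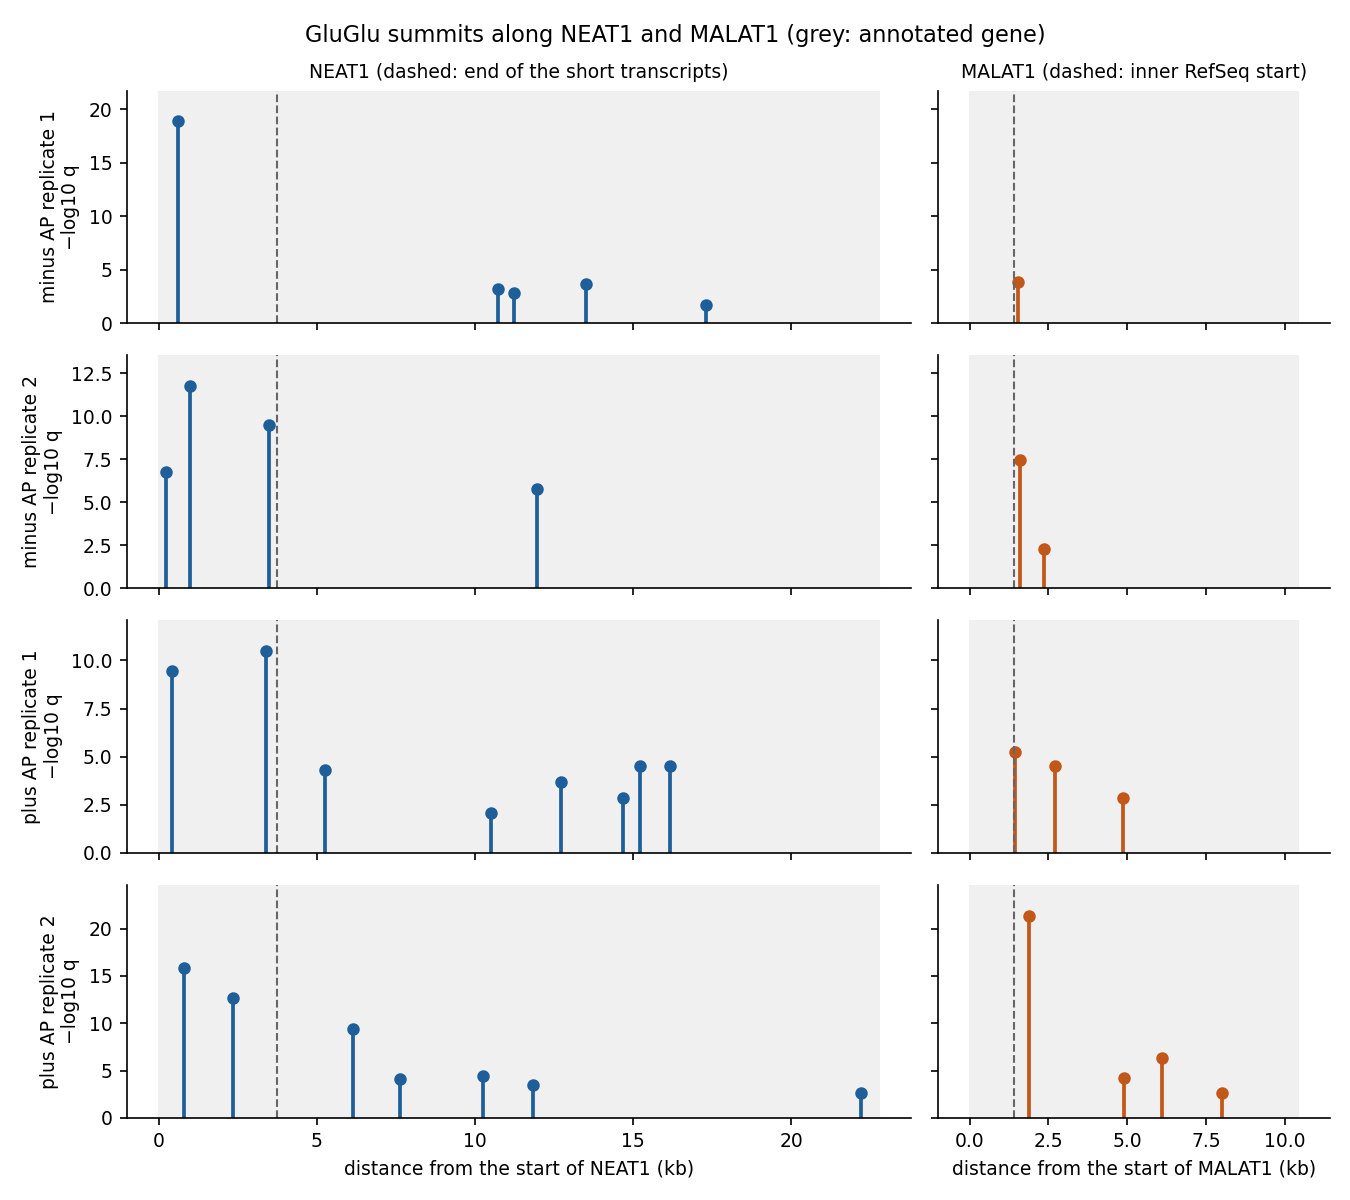
Score of each summit (−log10 q, a separate vertical scale for each library) against its distance from the start of NEAT1 (left) and MALAT1 (right) in kb, with a row for each library. In NEAT1 the highest point lies left of the dashed end of the short transcripts in all 4 rows, and in MALAT1 the highest point is the first one right of the dashed inner start.

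Along MALAT1, all 10 summits lay downstream of the inner start. The most 5′ summit was 126 bp past it in minus AP replicate 1 (65499171, score 3.84), 189 bp in minus AP replicate 2 (65499234, score 7.46), 25 bp in plus AP replicate 1 (65499070, score 5.24) and 491 bp in plus AP replicate 2 (65499536, score 21.4). It was the highest-scoring of its gene in each library, and the only one in minus AP replicate 1. The 1405 bp between the outer annotated start and the inner one held no summit.

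Farther along MALAT1, minus AP replicate 1 had no other summit and minus AP replicate 2 had 1, at 65500001 with a score of 2.28. Plus AP replicate 1 had summits at 65500348 and 65502496, with scores of 4.54 and 2.84. Plus AP replicate 2 had them at 65502548, 65503743 and 65505667, with scores of 4.19, 6.30 and 2.66. As percentages of the gene from its annotated start, the summits reached 14.7% and 22.6% in the minus AP replicates and 46.5% and 76.9% in the plus AP replicates, so every summit past 22.6% was from a plus AP library. The plus AP libraries also listed more MALAT1 summits, 3 and 4 against 1 and 2, and the part of that number in the reach was not tested. In NEAT1 the summits reached 76.0% and 52.5% without AP and 71.0% and 97.6% with AP.

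The last MALAT1 summit lay 450 bp before a small RNA gene (ENSG00000274072, 65506117-65506173), which encodes the tRNA-like mascRNA released by RNase P. The annotated MALAT1 gene runs on past it to 65508073, and the percentages of the gene refer to this longer annotation. Neighbouring MALAT1 summits were 767 bp apart in minus AP replicate 2, 1278 and 2148 bp in plus AP replicate 1, and 3012, 1195 and 1924 bp in plus AP replicate 2. TALAM1, transcribed antisense to MALAT1, overlaps 7 of the 10 summits. ChIP signal has no strand, so the 2 genes cannot be told apart there.

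Summits within 1000 bp of each other were chained into positions to compare libraries. NEAT1 had 9 positions, 2 of them occupied in all 4 libraries. The first ran from 65423014 to 65423775 (762 bp, 5 summits) and the other from 65433035 to 65436272 (3238 bp, 8 summits), and with a limit of 500 bp only 1 was shared by all 4. A position from 65428023 to 65428912 was occupied in both plus AP libraries and neither minus AP library, and 4 more were occupied in 1 plus AP library. The position at 65440085 was occupied in minus AP replicate 1 only, and the remaining one, from 65426164 to 65426247, in minus AP replicate 2 and plus AP replicate 1.

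MALAT1 had 4 positions. That from 65499070 to 65500348 (1279 bp, 6 summits) was occupied in all 4 libraries, that from 65502496 to 65502548 in both plus AP libraries, and those at 65503743 and 65505667 in plus AP replicate 2 only. No position of MALAT1 was occupied without AP alone. The longer plus AP lists move with these differences too, and their part was not tested.

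By score, the best NEAT1 summit ranked 143 of 739 and 5 of 56 without AP, and 284 of 1094 and 7 of 297 with AP. Among the summits inside annotated genes alone it ranked 7 of 121, 5 of 47, 29 of 174 and 5 of 246. The low ranks in the full replicate 1 lists thus stood beside summits outside genes, where these lists also held most of their repeated windows. The best MALAT1 summit ranked 519, 12, 569 and 2 in the full lists and 80, 10, 79 and 2 among summits inside genes. MALAT1 was therefore near the top in plus AP replicate 2 and beyond the middle of the list in both replicate 1 libraries. The lowest-ranked NEAT1 summit was 713 of 739, 20 of 56, 972 of 1094 and 238 of 297, and in minus AP replicate 2 all 4 of its summits were within the upper 20.

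**Figure D3:**
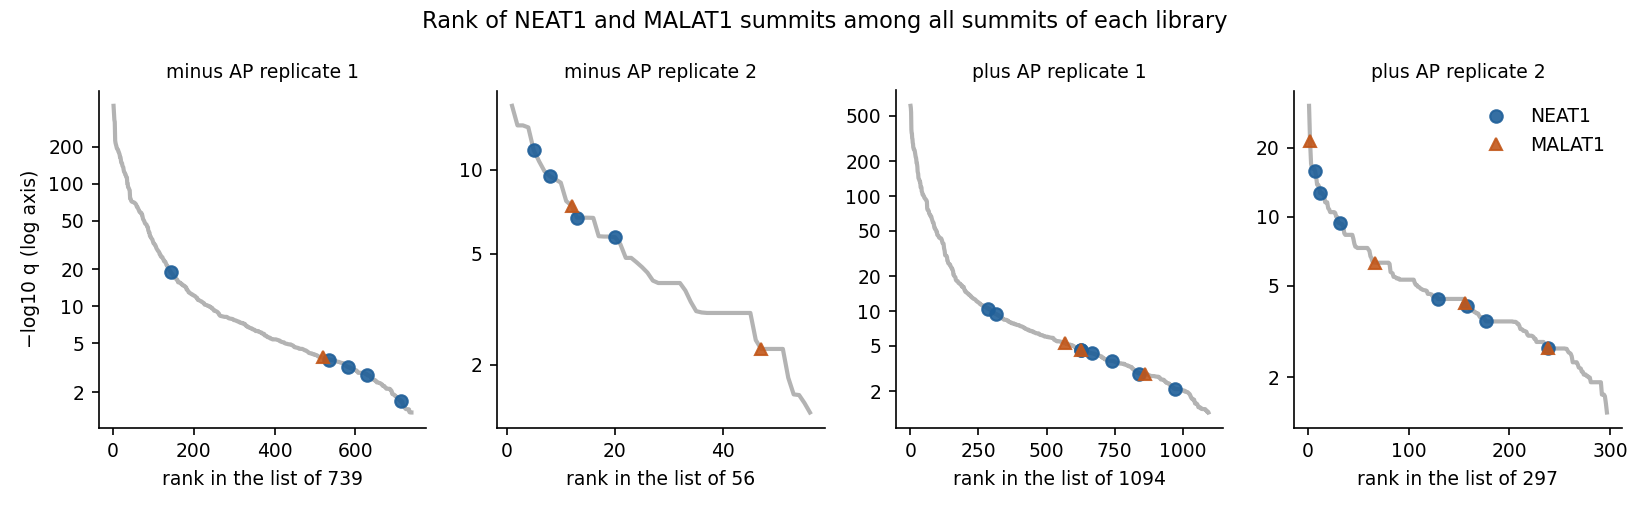
Score (−log10 q, log axis) against rank for all summits of each library (grey line), with the summits of NEAT1 (blue circles) and MALAT1 (orange triangles) marked on it. The best NEAT1 summit is at rank 143, 5, 284 and 7 from left to right, and the MALAT1 summit at rank 2 in plus AP replicate 2 scored 21.4.

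No other summit lay near the 2 genes. Summits were sparse everywhere, with 536 of 62700 annotated genes holding one in any library, so empty surroundings are not read as a trait of this place. The 50099 bp between their extended limits hold 7 annotated genes (ENSG00000291174, FAUP4, ENSG00000289259, ENSG00000289883, LINC02736, ENSG00000286756 and ENSG00000290061) and had 0 summits in every library. A further 500000 bp on each side hold 85 genes, 55 of them protein-coding, and had 0 summits as well. The nearest other summits on the chromosome were 2565943 bp before and 2077967 bp after the region, both in plus AP replicate 2. The chromosome had 9, 8, 17 and 24 summits per library, of which 6, 6, 11 and 11 were in NEAT1 or MALAT1, or 34 of 58 (58.6%) over all libraries.

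The windows of 301 bases around the summits differed between the genes. GC content in NEAT1 ranged from 31.6 to 64.5% with a median of 43.7%, and in MALAT1 from 29.9 to 44.5% with a median of 34.2%. The median over all summits inside genes was 51.8, 51.8, 49.8 and 53.2% by library, above the median of either gene. TNTTT or its reverse complement matched in 24 of 24 NEAT1 windows and 10 of 10 MALAT1 windows, beside 83.3% of all 2186 windows and 79.3 to 86.8% of those inside genes by library. The median number of matches was 5 in NEAT1, 12.5 in MALAT1 and 5 over all windows, and as an AT-rich sequence it follows base composition, whose part was not tested.

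TGANTCA occurred in 2 of 24 NEAT1 windows and 1 of 10 MALAT1 windows, beside 3.89% of all windows and 0 to 5.75% of those inside genes by library. TTCNNNGAA occurred in 0 of 24 and 1 of 10, the latter around the summit at 65500348 in plus AP replicate 1, beside 3.25 to 12.1% of the windows inside genes. Over all windows the share was 32.1%, and in the replicate 1 lists it was 32.3% and 40.6% against 8.93% and 4.71% in the replicate 2 lists. TATAAA occurred in 4 of 24 and 2 of 10, beside 20.9% of all windows and 10.6 to 15.9% of those inside genes. A match describes the letters of a window and not a bound site, and overlapping windows of neighbouring summits share letters.

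By number of summits among protein-coding and lncRNA genes, NEAT1 ranked 4, 1, 4 and 1 in the 4 libraries. NEAT1 shared its rank of 4 with others, in ties of 3 and 2 genes. MALAT1 ranked 23, 8, 10 and 6, each a tie, of 52, 7, 10 and 6 genes. Its rank of 23 was the lowest possible, shared by the 52 of 74 genes that had 1 summit. A longer gene can hold more summits, and per kb of the extended gene the means were 0.182 ± 0.0286 and 0.303 ± 0.0286 (SD, n = 2) in NEAT1 without and with AP and 0.121 ± 0.0569 and 0.281 ± 0.0569 in MALAT1. Both without and with AP the genes were thus closer per kb than in number. Over all 4 libraries NEAT1 ranked 3 by total with 24 summits, and MALAT1 had 10.

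The gene whose 4 counts were most like those of NEAT1, by the sum of absolute differences over 36 candidate genes with a summit in at least 3 libraries, was KRT5, a keratin of basal epithelial cells. It had 6, 3, 8 and 6 summits, a sum of differences of 3. MIR205HG, the host gene of miR-205, had 5, 3, 3 and 2 (sum 11). TXNIP, which encodes a thioredoxin-binding protein, had 2, 3, 3 and 5 (sum 11), and NFKBIA, which encodes an inhibitor of NF-κB, had 2, 3, 3 and 4 (sum 12).

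For MALAT1 the most similar counts were those of TALAM1, which had the same 10 summits within its extended limits because it overlaps MALAT1. NFKBIA had a sum of differences of 2, as did HOOK2 and JUNB, each with 2, 2, 3 and 3. JUNB, an AP-1 subunit, and HOOK2, annotated across it, shared all 10 of their summits and are 1 signal. TXNIP followed with a sum of 3. These likenesses are over 4 libraries and are descriptions.

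**Figure D4:**
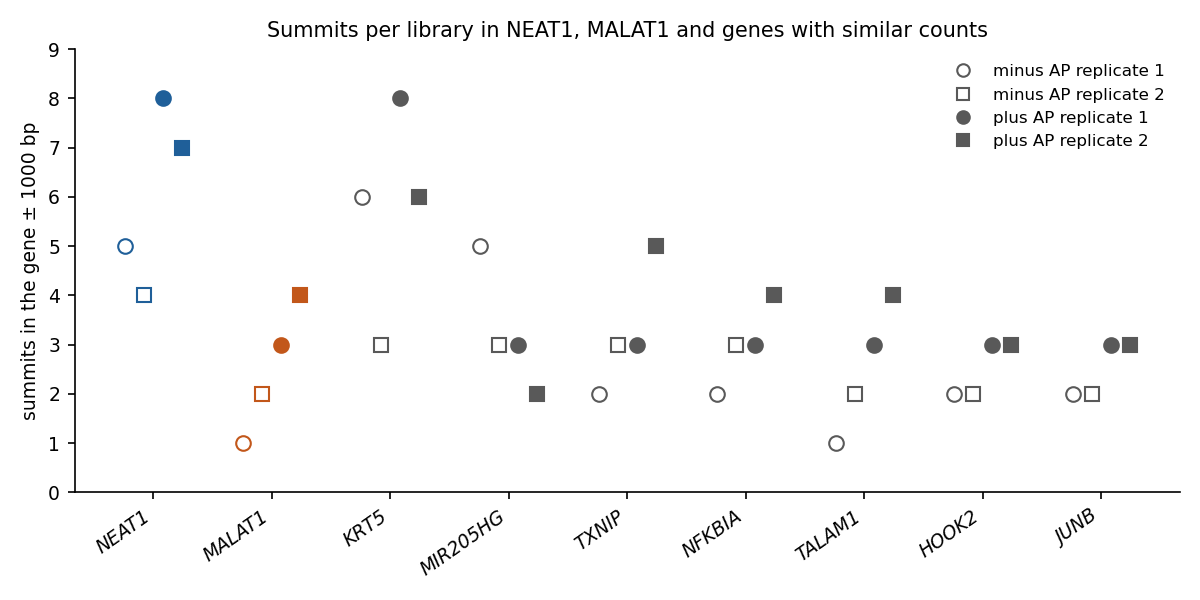
Number of summits within each gene extended by 1000 bp, for NEAT1, MALAT1 and the genes of similar counts named in the text, with a symbol for each library (open, minus AP; filled, plus AP; circles, replicate 1; squares, replicate 2). NEAT1 and KRT5 reach 8 summits in plus AP replicate 1, whereas the other genes drawn have at most 5 in any library; TALAM1 shares its summits with MALAT1, and HOOK2 with JUNB.

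Other genes of nuclear bodies and nuclear RNA were looked up from a list of 44. Of these, 6 had a summit in at least 1 library (13.6%, beside 1.03% of all 38912 protein-coding and lncRNA genes), and 0 had one in all 4. The list was chosen with earlier results of these data known, so nothing is read from the higher share. Among 15 genes of paraspeckle proteins, which bind NEAT1 RNA, 0, 0, 0 and 2 had a summit in the 4 libraries. HNRNPA1, which encodes an RNA-binding protein, had 1 summit there. Among 13 genes of speckle proteins 1 had a summit, SRSF2, a splicing factor, in plus AP replicate 2. Neither of the 2 genes of 3′ end processing looked up, RPPH1 (the RNA of RNase P) and ELAC2 (tRNA 3′ processing), had one.

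Of 14 other lncRNA genes, 0, 1, 1 and 3 had a summit. GAS5, a host gene of small nucleolar RNAs, had 0, 1, 1 and 4, and was the only gene of the 44 with a summit in more than 1 library. SNHG1 and SNHG8, which also host small nucleolar RNAs, had 2 and 1 summits in plus AP replicate 2. In that library, which listed the most genes with a summit (325 protein-coding or lncRNA genes, against 54 to 112 in the others), 6 of the 44 genes were found. The names of single genes with a summit in 1 library were given after their values had been seen.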

How the data were processed

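Chromatin of B2B1 cells was immunoprecipitated with an antibody to GluGlu. The authors checked reads with FastQC 0.11.5, aligned them to GRCh38 with Bowtie2 2.2.9, kept unique and deduplicated reads and called peaks against input chromatin with MACS2 2.2.7.1, as their methods and the submitters' processing notes state. The paper's results, by contrast, name naive IgG as the control for enrichment, and which control lies behind the scores could not be checked here. The deposited lists give each summit's position and, as a score, its −log10 q-value. List names mark control or dimerizer and a replicate number, which were matched to the sample titles. Reads and peak widths were not analysed here.

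Summits were counted in GENCODE 44 genes extended by 1000 bp, with Python 3.11.15, pandas 2.3.3, numpy 2.4.6 and scipy 1.17.1. Counting was tested on simulated data. Repeated 75-base sequences were sought over 194 contigs of GRCh38. Promoters came from RefSeq (GRCh38.p14). The members and lists were chosen with earlier results of these data known. No test was run. The short NEAT1 form was to be single-exon transcripts ending within 5000 bp of the start. None was annotated as 1 exon, so all transcripts ending there were used. Genes named were NEAT1, MALAT1, genes overlapping their region, the 5 genes with the most similar counts to each, and nuclear-body genes with summits in at least 2 libraries. The values of 2 genes that these rules or lists include are not reported here. TATAAA and the exceptions named in the text were chosen after values were seen. Alternatives covered gene limits, minimum score, merging of summits, list length, denominators and leaving out libraries.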

Additional observations from a re-analysis of the deposited data

How the results depend on the processing

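The higher number of summits with AP (a difference in means of 3 in NEAT1 and 2 in MALAT1) kept its direction with other gene limits, score minimums of 2 or 3 and merging of summits within 500 or 1000 bp. It ranged from 2.5 to 3.5 in NEAT1 and from 1.5 to 2.5 in MALAT1 when 1 library was left out. A replicate block, pairing libraries by replicate number, gave 3 and 2, as did replicate 2 alone; the numbers were not shown to pair the libraries. The direction of the means turned when list length was taken into account, with most weight from minus AP replicate 2. The 56 highest-scoring summits are the whole list of that library, and both replicate 1 libraries had 0 in either gene among theirs. The difference was -0.5 in both genes among the 56 highest-scoring summits of each library, -2.60 percentage points in NEAT1 and -0.866 in MALAT1 as a share of summits inside genes, -2.38 and -0.605 after repeated windows were also left out, and -2.37 and -1.04 as a share of all summits. Without minus AP replicate 2 these became 1.5 and 0.5, -0.411 and 0.849, -1.21 and 0.906, and 0.867 and 0.675 in NEAT1 and MALAT1, so only the NEAT1 shares inside genes stayed lower with AP. Without plus AP replicate 1 the counts among the 56 highest differed by 1 in NEAT1 and 0 in MALAT1, and leaving out either remaining library kept all of them below 0. The last 2 denominators, the block, replicate 2 alone and these left-out libraries were chosen after seeing the data. The NEAT1 positions shared by all 4 libraries fell from 2 to 1 within 500 bp. The genes with more summits in each plus AP library numbered 25 instead of 45 without extension of the genes, and 53 to 339 when 1 library was left out, with 339 without plus AP replicate 1 and 109 without plus AP replicate 2. Those with a summit in all 4 libraries, 31 in number, were 31 to 40 when 1 library was left out, 22 without extension, 42 with 5000 bp, 25 among protein-coding and lncRNA genes and 27 at a score of 2 or more. Depth was unknown, so a position missing from a short list may lie below its detection limit.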
